A study of Mus musculus with 83 samples.

Results

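Glycolysis splits glucose into pyruvate in the cytosol, and the citric acid cycle oxidises the carbon of pyruvate in mitochondria. The genes described here encode 39 proteins of these pathways: glucose and monocarboxylate transporters, glycolytic enzymes, phosphofructokinase-2 enzymes, lactate dehydrogenase, the pyruvate dehydrogenase complex with its kinases, and citric acid cycle enzymes. They were chosen by name, and all 39 were found among the 48795 genes of the count table. Each library holds RNA from a pool of 125 neurons, taken from frontal cortex of male mice of the C57BL/6 strain. The neurons were cut from 14 µm sections by laser capture microscopy after staining for a marker RNA. Pyramidal cells (PYC, stained for Slc17a7) and interneurons stained for Pvalb (PV), Sst (SST) or Vip (VIP) were collected. Mice were old (22 months) or young (2 months), and the labels give no treatment or engineered allele. There were 12 old libraries of each type, 9 young libraries of PYC, SST and VIP, and 8 young libraries of PV, or 83 in all.

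Neurons spend much of their fuel on restoring ion gradients after action potentials and synaptic input. Fast-spiking PV interneurons fire at high rates and are known for dense mitochondria. Several steps of the pathways are catalysed by isozymes, products of related genes that differ in kinetics, and the muscle-type, liver-type and platelet-type phosphofructokinases and the A and B subunits of lactate dehydrogenase are examples.

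The median library held 6.989 M counts (range 1.457 M to 27.17 M). In 6 libraries, mitochondrially encoded genes took under 3% of counts: 1 old and 1 young PYC, 1 young SST, and 1 old and 2 young VIP libraries. The median share was 12.43% in PV, 10.95% in PYC, 10.76% in SST and 11.01% in VIP libraries. The stained RNA was highest in its own type each time: median Pvalb was 76.3 CPM (a gene's count scaled to the total of its library) in PV and at most 4.65 CPM elsewhere. Median Sst was 817 CPM in SST, median Vip 527 CPM in VIP and median Slc17a7 731 CPM in PYC libraries. Slc17a7 was also found in the interneuron pools, at medians of 273 CPM in PV, 347 CPM in SST and 484 CPM in VIP. Markers of the other collected types were called higher in their own type for 8 of 8 PV, 7 of 7 tested SST, 9 of 9 VIP and 7 of 7 tested pyramidal genes. The pyramidal markers summed to medians of 3355 CPM in PYC, 1535 CPM in PV, 1859 CPM in SST and 2923 CPM in VIP, so these markers were also detected in the interneuron pools, least in PV. SST markers summed to medians of 507.5 CPM in VIP (288.5 to 2314), 167 CPM in PV and 119 CPM in PYC. PV markers summed to medians of 1025 CPM in VIP, 762 CPM in SST and 226 CPM in PYC. In VIP, 2 of 7 tested SST markers were called higher and 0 lower, and of 8 PV markers 1 was higher and 2 lower. A set of 10 astrocyte markers summed to a median of 2781 CPM in PYC, 1895 CPM in PV, 2633 CPM in SST and 3131 CPM in VIP libraries. The part of these other cells in the comparisons was not tested. In pools, fewer cells of a type and less RNA per cell cannot be told apart. The labels do not tie libraries to mice. Since the design text counts 12 old and 9 young mice, libraries of several types share mice, and the p-values between types treat them as separate.

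Members were compared between each type and the mean of the other 3 types, with the ages averaged, by edgeR's quasi-likelihood test, and a gene was called at an adjusted p under 0.05 over the 9604 genes tested. Of the 39 members, 38 were abundant enough to be tested. Hk2, an inducible hexokinase, was not, with 0 counts in 51 of 83 libraries. In PV libraries 22 of the 38 were higher (57.9%) and 4 were lower (10.5%), against 11.1% and 11.6% of all genes tested, or 22.7% in either direction. In VIP libraries 0 were higher and 17 were lower (44.7%), against 6.98% and 5.5% of all genes (12.5% in either direction). The 1 member higher in VIP at an unadjusted p under 0.05 was Slc2a1, which DESeq2 called. In PYC libraries 8 were higher (21.1%) and 3 lower (7.89%), against 9.15% and 7.5% (16.6% in either direction). In SST libraries 1 was higher (2.63%) and 5 lower (13.2%), against 4.46% and 3.1% (7.56% in either direction). The median log2 fold change of the 38 was 0.60 in PV and -0.43 in VIP, where the medians of all genes were -0.02 and 0.03. These 4 contrasts share libraries, and a gene that is high in PV alone is by arithmetic lower in each of the other contrasts. The contrasts between pairs of types are therefore given beside them.

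**Figure D1:**
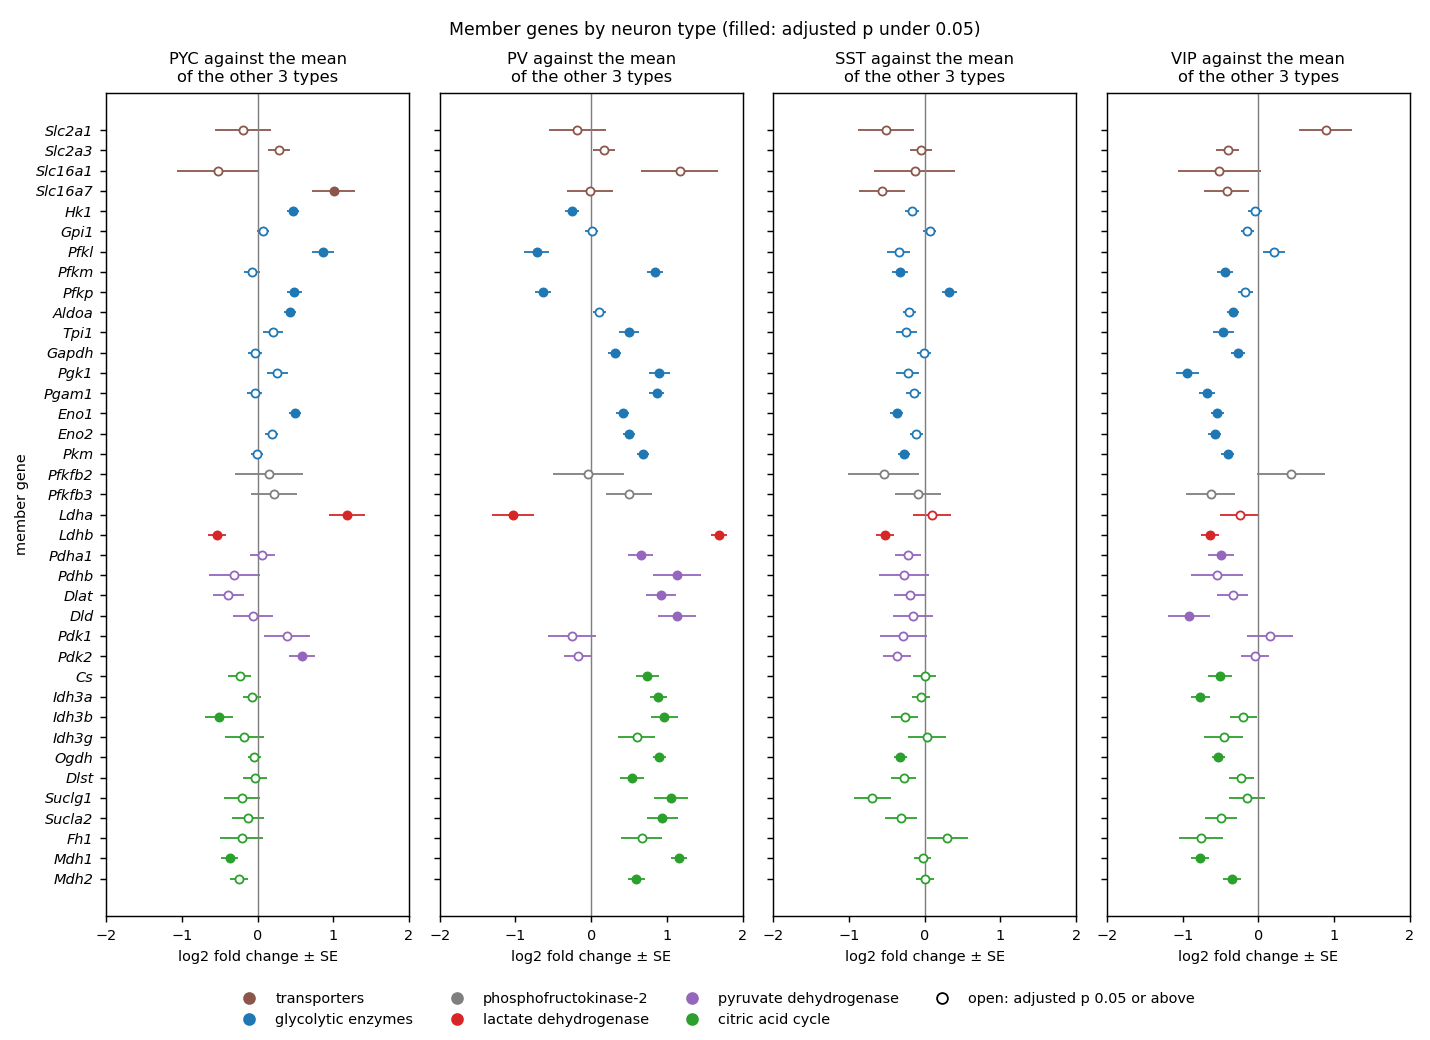
Log2 fold change ± SE of each of the 38 tested members in each neuron type, relative to the average of the 3 remaining types, coloured by role. Filled circles passed an adjusted p of 0.05 in edgeR; in PV 22 filled circles lie right of 0 and 4 left of it, and in VIP all 17 lie left of it.

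Between pairs of types, PV stood above each of the others. Of the 38 members, 16 were higher in PV than in PYC and 4 lower, 20 were higher than in SST and 1 lower, and 24 were higher than in VIP and 2 lower. Over all genes, 10.3% were higher and 11.6% lower in PV than in PYC, 5.71% higher and 6.98% lower than in SST, and 10.1% higher and 11.7% lower than in VIP. VIP stood lowest: 14 members were higher in PYC than in VIP and 6 were higher in SST than in VIP, against 5.67% and 3.37% of all genes. By edgeR 0 members were called higher in VIP in either contrast, against 5.96% and 3.46% of all genes, with 0 and 2 (Pfkl and Slc2a1) at an unadjusted p under 0.05. In either direction 11.6% of genes differed between PYC and VIP and 6.83% between SST and VIP. PYC exceeded SST in 6 members, against 6.7% of all genes, and 0 were lower by edgeR, also at an unadjusted p under 0.05, against 6.55%. Summed over the 39 members, levels ran from 7148 to 9617 CPM (median 8538) in PV, 5841 to 9078 (median 7029) in PYC, 5045 to 8041 (median 6226) in SST and 4217 to 6985 (median 5268) in VIP libraries. The ranges of neighbouring types overlapped, while the lowest PV library lay above every VIP library.

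Glucose enters cells through facilitative transporters, and monocarboxylate transporters carry lactate and pyruvate. In the main edgeR fit none of the 4 transporter genes was called in PV, SST or VIP. DESeq2 called Slc2a1 in VIP, and limma-voom called Slc16a1 in PV and Slc2a3 in PYC and VIP. Slc2a3 was also called lower in VIP by edgeR under several alternatives given below. Slc2a3, the main glucose transporter of neurons, had medians of 115 CPM in PYC, 111 CPM in PV, 108 CPM in SST and 85.2 CPM in VIP. In the pairwise test it was higher in PYC than in VIP by 0.51 ± 0.18 (adjusted p = 0.0424). Slc2a1, the glucose transporter best known from blood vessels and glia, had medians of 12.6 to 14.8 CPM in PYC, PV and SST and 30.6 CPM in VIP, a difference of 0.89 ± 0.35 (adjusted p = 0.0826). The 10 endothelial and pericyte markers summed to a median of 114.5 CPM in VIP against 74.7 to 101 CPM in the other types, and the part of such cells in the Slc2a1 level was not tested. Slc16a7 encodes MCT2, the high-affinity monocarboxylate transporter of neurons, and Slc16a1 encodes MCT1, known from glia and endothelium. Slc16a7 was higher in PYC by 1.01 ± 0.28 (adjusted p = 0.00480), with a median of 63.7 CPM there against 22.3 to 31.6 CPM in the other types. In the pairwise tests Slc16a7 in PYC was above SST and VIP and was not called against PV. Its PYC call was lost in young libraries alone. Slc16a1 had a median of 19.3 CPM in PV, 13.0 CPM in VIP, 5.66 CPM in SST and 4.80 CPM in PYC, and the PV difference of 1.17 ± 0.51 missed the threshold (adjusted p = 0.0889).

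Hexokinase commits glucose to metabolism. Hk1, the brain's main hexokinase, ran from 250 to 746 CPM in PYC (median 356), 179 to 318 CPM in PV (median 266), 208 to 486 CPM in SST (median 276) and 175 to 535 CPM in VIP (median 282). It was higher in PYC by 0.47 ± 0.09 (adjusted p = 6.12e-06) and lower in PV by a log2 fold change of -0.26 ± 0.09 (adjusted p = 0.0299). In the pairwise tests Hk1 in PV was below PYC and was not called against SST or VIP. The PV call was lost without the 6 libraries of low mitochondrial share. It was also lost with no filter on low counts and without the step that kept the more abundant genes. In young libraries alone and in old libraries alone it was lost as well. Of the summed CPM per kb of exon of Hk1 and Hk2 alone, Hk1 had a median share of 99.9% in PYC and 100% in the other types, and the lowest share in any library was 87.3%, in SST. That sum leaves out other hexokinase genes, of which Hkdc1 had a median of 12.4 CPM in PYC and 6.93 CPM in VIP. Gpi1, glucose-6-phosphate isomerase, was called in none of the 4 contrasts, with medians of 314 to 346 CPM.

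Phosphofructokinase, the main control point of glycolysis, showed opposite differences among its 3 genes. Pfkm, the muscle-type subunit, ran from 261 to 530 CPM in PV libraries (median 339.7), and from 49.2 to 330 CPM in the 63 others (median 206). All 20 PV libraries lay above the median of the others, and 12 lay above their highest. Its log2 fold change in PV was 0.84 ± 0.10 (adjusted p = 1.22e-11). Pfkp, the platelet-type subunit, ran from 109 to 245 CPM in PV (median 161) and from 104 to 484 CPM in the others (median 272). All 20 PV libraries lay below the median of the others, although the ranges overlapped, and the fold change was -0.64 ± 0.11 (adjusted p = 5.79e-07). Pfkl, the liver-type subunit, ran from 98.9 to 191 CPM in PYC (median 136) and from 6.25 to 217 CPM in the others (median 76.7). It was higher in PYC by 0.86 ± 0.14 (adjusted p = 7.15e-07) and lower in PV, at -0.72 ± 0.16 (adjusted p = 0.000204), where it ran from 17.7 to 119 CPM (median 53.8). In the pairwise tests Pfkl was not called between PYC and VIP or between PV and SST. Per kb of exon, Pfkm therefore made up a median of 83.8% of phosphofructokinase signal in PV (76.1% to 90.2%), against 60.7% in PYC (50.4% to 72.8%), 65.2% in SST (24.5% to 74.3%) and 66.3% in VIP (40.7% to 79.9%). Only VIP libraries reached into the PV range. With the length of the longest coding transcript in place of all exons the same medians were 69.4%, 41.6%, 46.1% and 47.1%. Pfkp is overlapped on the other strand by exons of Pitrm1, whose counts came to 25.0% of those of Pfkp, and Pfkm by exons of Senp1, at 8.15%. Whether counting used strand is unknown, so reads of overlapping genes may not be separated.

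**Figure D2:**
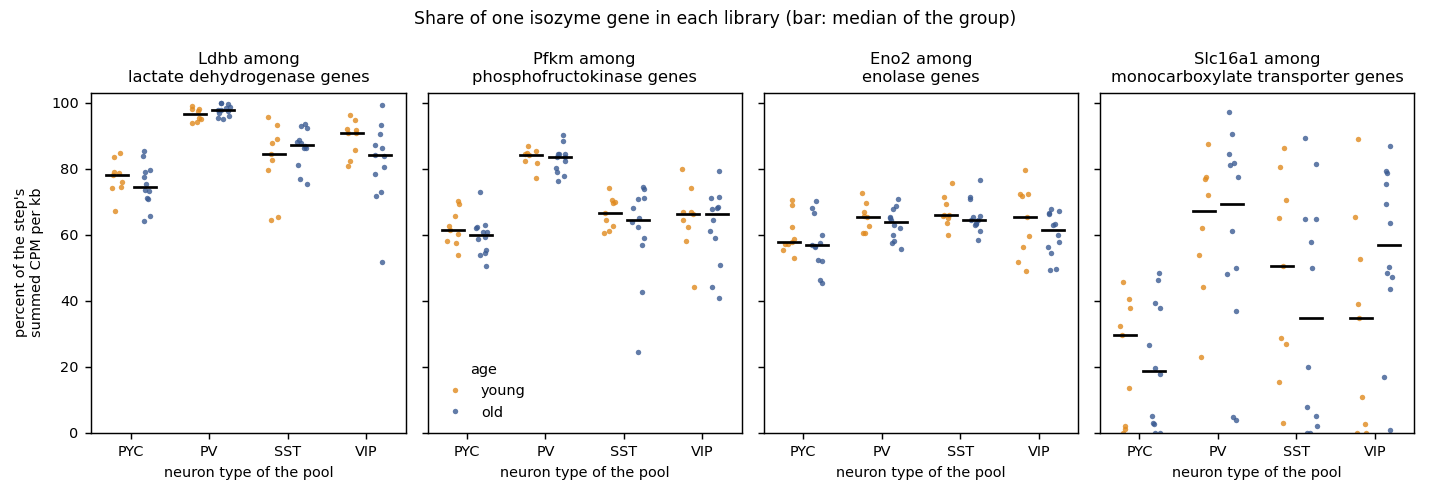
Share of the step's summed CPM per kb held by Ldhb, Pfkm, Eno2 and Slc16a1 in each of the 83 libraries, in percent, by neuron type and age; bars are group medians. The Ldhb points of PV lie between 94.0% and 100%, and the Pfkm points of PV lie between 76.1% and 90.2%, while the Slc16a1 points of PV spread from 3.82% to 97.2%.

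Against the mean of the other types, the lower steps of glycolysis went mostly one way in PV. Aldoa, aldolase A, had the highest level per kb of the glycolytic enzymes in every type, with medians of 212 to 282 CPM per kb. It was higher in PYC by 0.43 ± 0.08 (adjusted p = 9.49e-06), lower in VIP by a fold change of -0.33 ± 0.08, and not called in PV. Tpi1, triose-phosphate isomerase, was higher in PV by 0.51 ± 0.13, and Gapdh, glyceraldehyde-3-phosphate dehydrogenase, by 0.31 ± 0.09. In the pairwise tests Tpi1 in PV was above SST and VIP and was not called against PYC. Gapdh in PV was above VIP and was not called against PYC or SST. Pgk1, Pgam1 and Pkm, given next, were higher in PV than in each other type. Pgk1, phosphoglycerate kinase, an ATP-forming step, ran from 103.4 to 378 CPM in PV (median 249.5) and from 35.7 to 307 CPM in the others (median 135). In VIP its median was 92.7 CPM. It was higher in PV by 0.90 ± 0.14 (adjusted p = 9.21e-08) and lower in VIP by a fold change of -0.94 ± 0.15 (adjusted p = 9.40e-07). Pgam1, phosphoglycerate mutase, lay between 237.5 and 563.97 CPM in PV (median 347) and from 91.5 to 401 CPM in the others (median 209). All 20 PV libraries lay above the median of the others and 5 above their highest, with a fold change of 0.86 ± 0.10 (adjusted p = 7.72e-13). Pkm, pyruvate kinase, ran from 495 to 1073 CPM in PV (median 825) and from 289 to 951 CPM in the others (median 516). In 19 of 20 PV libraries it lay above that median, and the fold change was 0.69 ± 0.08 (adjusted p = 8.22e-12).

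The enolase genes differed in where they were high. Eno2, the neuron-specific enolase, ran from 420 to 878 CPM in PV (median 681), 414 to 1171 in PYC (median 550), 361 to 718 in SST (median 528) and 238 to 735 in VIP (median 397). It was lower in VIP by a fold change of -0.57 ± 0.09 (adjusted p = 1.35e-07) and higher in PV by 0.50 ± 0.08 (adjusted p = 5.93e-07). In the pairwise tests SST was above VIP by 0.35 ± 0.10 (adjusted p = 0.0208), and PYC and PV did not pass the test (adjusted p = 0.0974). Eno1, the widely expressed enolase, ran from 341 to 676 CPM in PYC (median 464), 290 to 577 in PV (median 441), 161 to 462 in SST (median 323) and 151 to 574 in VIP (median 280.4). It was higher in PYC by 0.50 ± 0.08 and in PV by 0.42 ± 0.08, and lower in SST at -0.37 ± 0.09 and in VIP at -0.54 ± 0.09. The neighbours in that order, PYC against PV (0.06 ± 0.10) and SST against VIP (0.13 ± 0.10), did not pass the test. Eno2 made up a median of 57.2% of enolase CPM per kb in PYC, 64.8% in PV, 65.4% in SST and 62.8% in VIP, and all 4 ranges overlapped.

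Several of these genes have near-identical copies, mostly pseudogenes, elsewhere in the genome. For Gapdh 185 such copies were found and they held 64.5% of the summed counts of gene and copies. The shares were 25.4% for Eno1, 23.5% for Pgam1, 6.18% for Ldha, 5.92% for Pgk1 and 3.55% for Tpi1. Adding the copies' counts left Gapdh higher in PV, at 0.28 ± 0.08 (adjusted p = 0.00384), and its VIP difference was then not called (adjusted p = 0.289). Levels of Gapdh, Eno1 and Pgam1 are uncertain for this reason. Gapdh is also overlapped on the other strand by exons of Iffo1, whose counts came to 14.2% of those of Gapdh. With the copies added, Pgam1 was higher in PV by 0.81 ± 0.09 and Eno1 by 0.30 ± 0.08.

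The phosphofructokinase-2 enzymes set the level of fructose 2,6-bisphosphate, which activates phosphofructokinase. Pfkfb3 had medians of 35.3 CPM in PYC, 42.0 CPM in PV, 26.5 CPM in SST and 18.2 CPM in VIP, and Pfkfb2 medians of 10.7 to 22.0 CPM. Neither was called in any of the 4 contrasts. Their SEs in those contrasts ran from 0.30 to 0.47 on the log2 scale, against 0.08 for Pkm. Pfkfb2 is overlapped on the other strand by exons of Yod1, whose counts came to 51.2% of those of Pfkfb2.

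Lactate dehydrogenase interconverts pyruvate and lactate, and its tetramers are built from A subunits (Ldha) and B subunits (Ldhb). Ldhb had the smallest p of all members. It ran from 327 to 774 CPM in PV (median 579), and from 64.8 to 351 CPM in the other 63 libraries (median 186). Of the 20 PV libraries, 19 lay above the highest of the others. The log2 fold change was 1.69 ± 0.11 (adjusted p = 2.81e-26). It was 1.67 ± 0.14 against PYC and SST each and 1.75 ± 0.14 against VIP in the pairwise tests. Medians in PYC (189.5 CPM), SST (196 CPM) and VIP (174 CPM) lay close together, and the 3 pairwise differences among them were at most 0.08 ± 0.14 and not called. Ldha went the other way, with medians of 119 CPM in PYC (46.6 to 257), 65.7 CPM in SST (22.9 to 177), 59.4 CPM in VIP (2.03 to 128) and 28.4 CPM in PV (0.0698 to 91.1). It was higher in PYC by 1.19 ± 0.24 (adjusted p = 5.00e-05) and lower in PV at -1.04 ± 0.28 (adjusted p = 0.00252). In the pairwise tests PYC exceeded PV by 1.67 ± 0.33 (adjusted p = 2.13e-05), while PV did not pass against SST (adjusted p = 0.0646) or VIP (adjusted p = 0.196). Ldhb made up a median of 97.6% of lactate dehydrogenase CPM per kb in PV (94.0% to 100%), 86.7% in SST (64.4% to 95.6%), 86.3% in VIP (51.5% to 99.3%) and 75.9% in PYC (64.1% to 85.4%). The PV and PYC ranges did not overlap. The astrocyte marker sum was lowest in PV, where 3 of 9 tested astrocyte markers were lower, and its part in the Ldha difference was not tested.

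**Figure D3:**
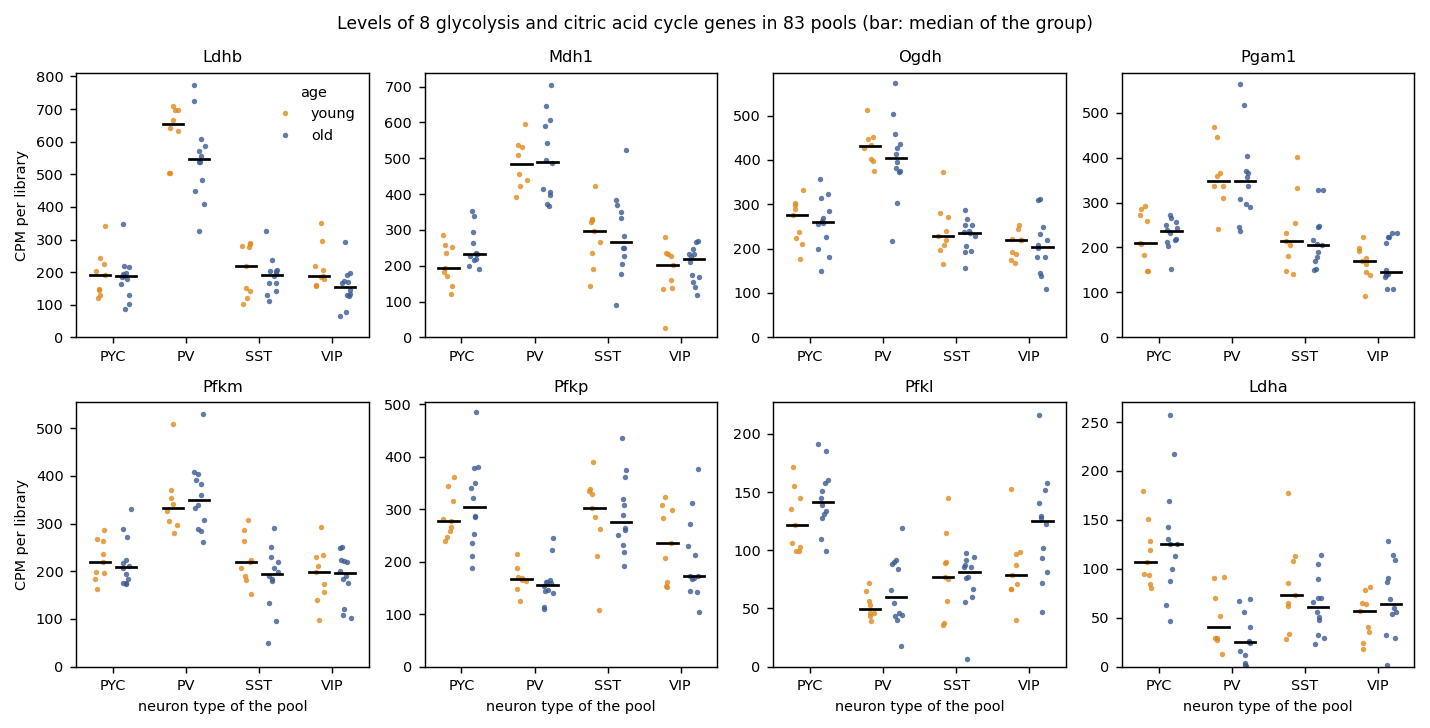
CPM of 8 members in each of the 83 libraries by neuron type, young (orange) and old (blue), with bars at group medians. Ldhb in PV lies between 327 and 774 CPM, and 19 of the 20 PV libraries are above the highest other library at 351 CPM; Pfkp, Pfkl and Ldha are lowest in PV by median.

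The pyruvate dehydrogenase complex feeds pyruvate into the citric acid cycle as acetyl-CoA, and its kinases switch it off. Against the mean of the other types, all 4 genes of the catalytic core were higher in PV. These were Pdha1 (E1 alpha subunit, 0.65 ± 0.16), Pdhb (E1 beta subunit, 1.13 ± 0.32), Dlat (E2 subunit, 0.93 ± 0.20) and Dld (E3 subunit, shared with the 2-oxoglutarate dehydrogenase complex, 1.13 ± 0.25). Their adjusted p-values ran from 8.52e-05 for Dlat to 0.00403 for Pdhb. In the pairwise tests Dlat and Dld were higher in PV than in each other type. Pdha1 was not called between PV and PYC, and Pdhb was not called between PV and SST. Median Dlat was 98.7 CPM in PV, 61.1 CPM in SST, 58.2 CPM in PYC and 44.1 CPM in VIP, and the ranges overlapped (43.2 to 237 CPM in PV). Median Dld was 100 CPM in PV and 35.8 CPM in VIP, where it was lower at -0.92 ± 0.28 (adjusted p = 0.0159). In the pairwise tests Dld in VIP differed from PV, and not from PYC or SST. The VIP call was lost with limma-voom, in young libraries alone and in old libraries alone. The kinase genes among the members, Pdk1 and Pdk2, did not follow. Pdk3, a kinase gene outside the members, differed in PV by 0.550 ± 0.245 and missed the threshold (edgeR adjusted p = 0.0999). Pdk2 was higher in PYC by 0.59 ± 0.18 (adjusted p = 0.00986) and Pdk1 was called in no type by edgeR (limma-voom called it in PYC), with fold changes in PV of -0.17 ± 0.19 and -0.25 ± 0.32. In the pairwise tests Pdk2 in PYC was above SST and was not called against PV or VIP. Its PYC call was lost in young libraries alone.

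Summed over the citric acid cycle enzymes, levels ran from 1666 to 2669 CPM in PV (median 2184), 912 to 1536 CPM in PYC (median 1263), 886 to 1877 CPM in SST (median 1409) and 878 to 1424 CPM in VIP (median 1109). The PV range overlapped that of SST and lay above those of PYC and VIP. The share of mitochondrially encoded counts was also highest in PV by median, and its part in this was not tested. In the citric acid cycle 9 of 11 enzyme genes were higher in PV by edgeR (11.1% of all genes), 0 were lower (11.6%), and all 11 fold changes were positive, with a median of 0.89. In VIP 5 of the 11 were lower (5.5% of all genes), in PYC 2 (7.5%) and in SST 1 (3.1%), each against a mean that includes PV. In the pairwise tests without PV, 0 of the 11 differed between PYC and SST (13.2% of all genes). Against VIP, Ogdh and Idh3a were higher in PYC (5.67% of all genes) and Mdh1 and Idh3a in SST (3.37%). By edgeR 0 were lower in PYC or SST than in VIP (5.96% and 3.46% of all genes). Mdh1, the cytosolic malate dehydrogenase of the malate-aspartate shuttle, ran from 367 to 703 CPM in PV (median 490.4) and from 25.3 to 524 CPM in the others (median 232). All 20 PV libraries lay above the median of the others and 8 above their highest. Its fold change in PV was 1.16 ± 0.11 (adjusted p = 2.33e-16). SST, with a median of 284 CPM, was above VIP (median 212 CPM) by 0.56 ± 0.14 (adjusted p = 0.00331). Ogdh, the E1 subunit of 2-oxoglutarate dehydrogenase, ran from 216 to 572 CPM in PV (median 420.4) and from 110 to 372 CPM in the others (median 229). Of the 20 PV libraries, 17 lay above the highest of the others, and the fold change was 0.90 ± 0.08 (adjusted p = 3.07e-16). Idh3a, the catalytic subunit of NAD-dependent isocitrate dehydrogenase, ran from 178 to 461 CPM in PV (median 323) and from 53.1 to 318 CPM in the others (median 189). In PV 10 libraries were above the highest of the others, and the fold change was 0.89 ± 0.12 (adjusted p = 3.49e-10). It was lower in VIP at -0.77 ± 0.12 (adjusted p = 7.33e-07).

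The remaining cycle enzymes had lower medians in PV than those 3. Cs (citrate synthase, the entry step) was higher by 0.74 ± 0.15, with a median of 162 CPM in PV against 76.4 to 105 CPM elsewhere. Idh3b (a regulatory subunit of isocitrate dehydrogenase) was higher by 0.97 ± 0.17, with medians of 139 CPM in PV and 63.4 to 78.5 CPM elsewhere. Its exons are overlapped on the other strand by Nop56, whose counts came to 50.5% of those of Idh3b. Dlst (the E2 subunit of 2-oxoglutarate dehydrogenase) was higher by 0.54 ± 0.16, and in the pairwise tests it was not called between PV and PYC. Suclg1 and Sucla2, the alpha subunit and the ATP-forming beta subunit of succinate-CoA ligase, were higher by 1.05 ± 0.23 and 0.94 ± 0.20. Mdh2 (mitochondrial malate dehydrogenase) was higher by 0.60 ± 0.12. Idh3g (the other regulatory subunit, 0.60 ± 0.25, adjusted p = 0.0685) and Fh1 (fumarase, 0.67 ± 0.27, adjusted p = 0.0669) did not pass. DESeq2 and limma-voom called both of them higher in PV.

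Promoter windows show the letters around the start of members that were higher, lower or not called in PV. RefSeq windows from 250 bases before to 50 bases after an annotated start (GRCm38.p6) were held for 36 of the 39 members. Some members, such as Ogdh, had windows at several starts. A gene with more windows has more chances of a match, and the number of windows per gene is not given. The letters ACGTG, the core of the hypoxia response element to which HIF factors bind, were searched on both strands. A palindromic CACGTG, which is also an E-box, counts as a match on either strand. ACGTG was in a window of 18 of the 36 members (50%), against 21.8% of 27025 genes. Among members higher in PV it was in 8 of 21, among those lower in PV in 2 of 4, and among those not called in 7 of 10. Hk2, which was not tested, also held it. AAGGTCA, the core of the estrogen-related receptor element, was in 3 of 36 members (8.33%; Tpi1, Eno1 and Ogdh), against 5.38% of genes. TGCGCA, the core of the NRF1 element, was in 9 of 36 (25%), against 8.79% of genes. The stretches below show the core in 5 members that were higher in PV and in Ldha, which was lower there. They were picked after the values were seen, and other members that hold the core, such as Pkm, are not printed. The Ogdh stretch lies inside the annotated gene, before a later start. Capitals mark ACGTG or its reverse complement, and each is written 5′ to 3′ on the gene's strand.
Ldha, chr7:46845737-46845781, plus strand: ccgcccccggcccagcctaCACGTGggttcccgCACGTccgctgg
Pgk1, chrX:106186930-106186974, plus strand: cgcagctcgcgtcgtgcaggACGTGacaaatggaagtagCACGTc
Pgam1, chr19:41911737-41911781, plus strand: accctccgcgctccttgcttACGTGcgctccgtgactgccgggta
Mdh1, chr11:21572109-21572153, minus strand: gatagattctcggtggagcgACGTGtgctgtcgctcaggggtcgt
Ogdh, chr11:6292041-6292085, plus strand: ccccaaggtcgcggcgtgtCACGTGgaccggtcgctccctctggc
Pfkm, chr15:98092434-98092478, plus strand: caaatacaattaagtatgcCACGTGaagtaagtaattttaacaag
A match in these windows is a description of letters, and no binding was measured.

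The contrasts of types were fitted again in young libraries alone and in old libraries alone, which come from different mice, with 37 members tested in both. In PV 19 members were called in young mice (13.9% of 7739 genes were) and 21 in old mice (19.5% of 7351 genes). Of these 16 were called at both ages in the same direction, or 84.2% of the young calls and 76.2% of the old calls, and 0 were called in opposite directions. Ldhb was higher in PV by 1.69 ± 0.16 in young and 1.69 ± 0.14 in old mice, Mdh1 by 1.23 ± 0.18 and 1.08 ± 0.13, and Pfkm by 0.77 ± 0.14 and 0.90 ± 0.13. Pfkp was lower by fold changes of -0.60 ± 0.16 and -0.68 ± 0.14. Dlat, Pdhb and Pdha1 were called in young mice only, and Mdh2, Sucla2, Tpi1, Gapdh and Ldha in old mice only. A call at a single age is no test of a difference between the ages. The interaction test below covers all types together and gives no value for PV alone. In VIP 10 members were lower at each age (2.71% of genes in young and 3.2% in old mice, and 7.16% and 7.88% in either direction) and 7 at both: Eno2, Pgam1, Mdh1, Ogdh, Idh3a, Pgk1 and Eno1. In PYC 5 were called in young mice (9.29% of genes, 5.43% higher and 3.86% lower) and 9 in old mice (14.3%), and the 5 were among the 9: Pfkl, Hk1, Ldha and Eno1 higher and Ldhb lower. In SST Ldhb was the 1 member called in young mice (3.29% of genes), 6 others were called in old mice (6.19%) and 0 were shared. The Ldhb calls in PYC and SST are against a mean that includes PV. In the pairwise tests of all libraries Ldhb was not called among PYC, SST and VIP. The share of all genes called at both ages is not given. Whether members repeated more often than other called genes was therefore not tested.

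**Figure D4:**
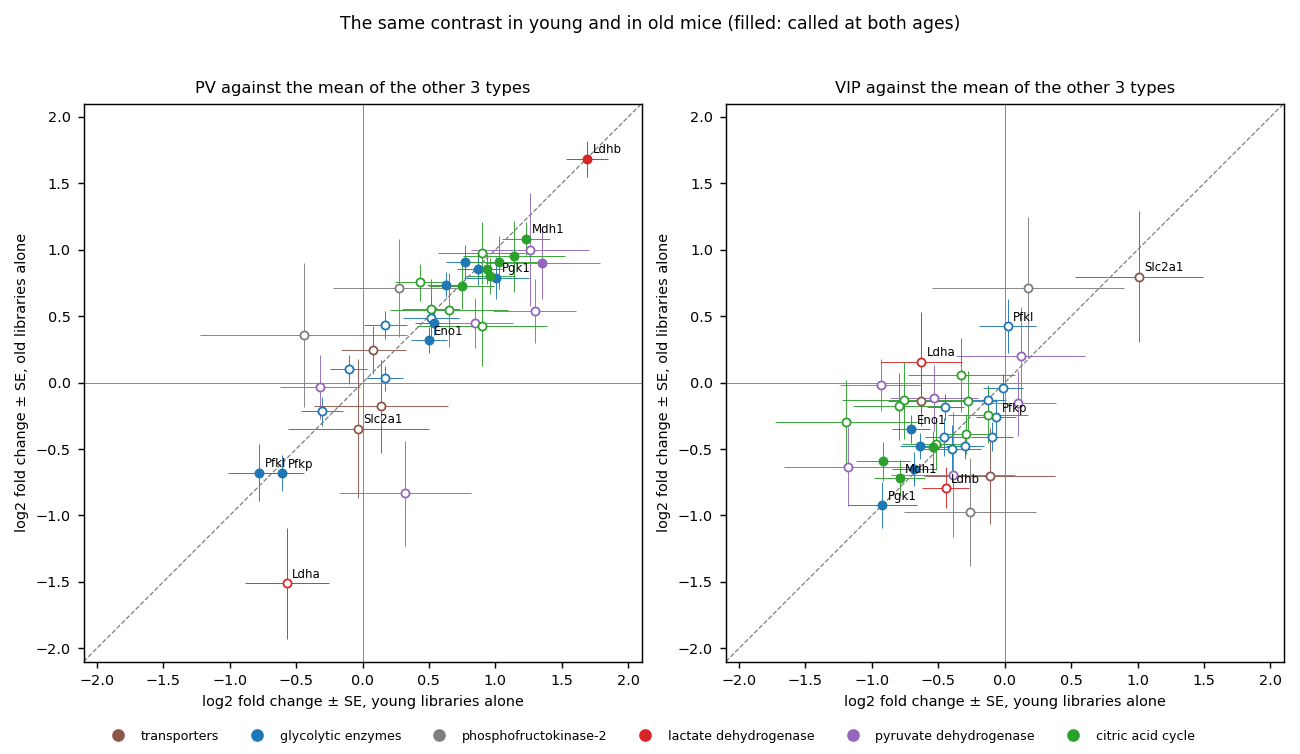
Log2 fold change ± SE for 37 members in PV (left) and VIP (right), relative to the average of the 3 remaining types, in young libraries alone (horizontal axis) and in old libraries alone (vertical axis), with the line of equality dashed. Filled circles were called at both ages, 16 in PV and 7 in VIP; Ldhb lies at 1.69 on both axes in PV, and Ldha lies at -0.57 and -1.51.

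Between old and young mice no member was called within any type by edgeR, where the share of all genes called was 0% in each type. At an unadjusted p under 0.05 there were 0 members in PYC, 1 in PV, 3 in SST and 4 in VIP, against 2.91%, 2.32%, 2.87% and 2.98% of genes. DESeq2 and limma-voom also called 0 members. Fold changes were small for some abundant enzymes: in PV, Ldhb differed by -0.24 ± 0.13 (95% interval -0.50 to 0.02), Mdh1 by 0.02 ± 0.13 (-0.24 to 0.27) and Pkm by -0.02 ± 0.12 (-0.25 to 0.21). Larger ones, such as that of Eno1 in VIP, are given below. The intervals for Ldhb, Mdh1 and Pkm in PV leave out a change of 1 on the log2 scale in either direction. Those of scarce members such as Slc16a1 in PYC (-2.05 to 2.14) do not. Median fold changes of the members were 0.11 in PYC, -0.04 in PV, -0.09 in SST and 0.07 in VIP, beside medians of all genes between -0.01 and 0.02.

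The members with the smallest p for age were scattered over the pathways. In VIP, Pdha1 ran from 55.9 to 123 CPM in old libraries (median 96.3) and from 12.6 to 115 CPM in young ones (median 39.9), and the fold change was 0.99 ± 0.34 (edgeR adjusted p = 0.9996). Eno1 in VIP had medians of 289 CPM in old and 254 CPM in young libraries (0.42 ± 0.18). In SST, Sucla2 had medians of 45.5 CPM in old and 84.7 CPM in young libraries (-0.79 ± 0.33), and Slc16a7 medians of 36.5 and 21.2 CPM (1.04 ± 0.47). In PV, Dlat had medians of 79.6 CPM in old and 122 CPM in young libraries (-0.51 ± 0.24), and Pdk1 medians of 18.9 and 32.5 CPM (-0.96 ± 0.51). In PYC, Mdh1 had medians of 233 and 193 CPM (0.30 ± 0.17), and Hk1 medians of 305 and 359.5 CPM (-0.23 ± 0.17). The old and young ranges overlapped for all 8, and none passed the test. Over all types together edgeR called 0 members for age and 0 of 9604 genes, and DESeq2 called 0 members and 8 genes. In edgeR there were 2 members (Ldhb and Slc2a3) and 4.39% of genes at an unadjusted p under 0.05. The interaction test of whether the age difference itself differed between types called 0 members, 0.0104% of all genes, and at an unadjusted p under 0.05 it held 1 member, Pdha1 (unadjusted p = 0.0186).

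**Figure D5:**
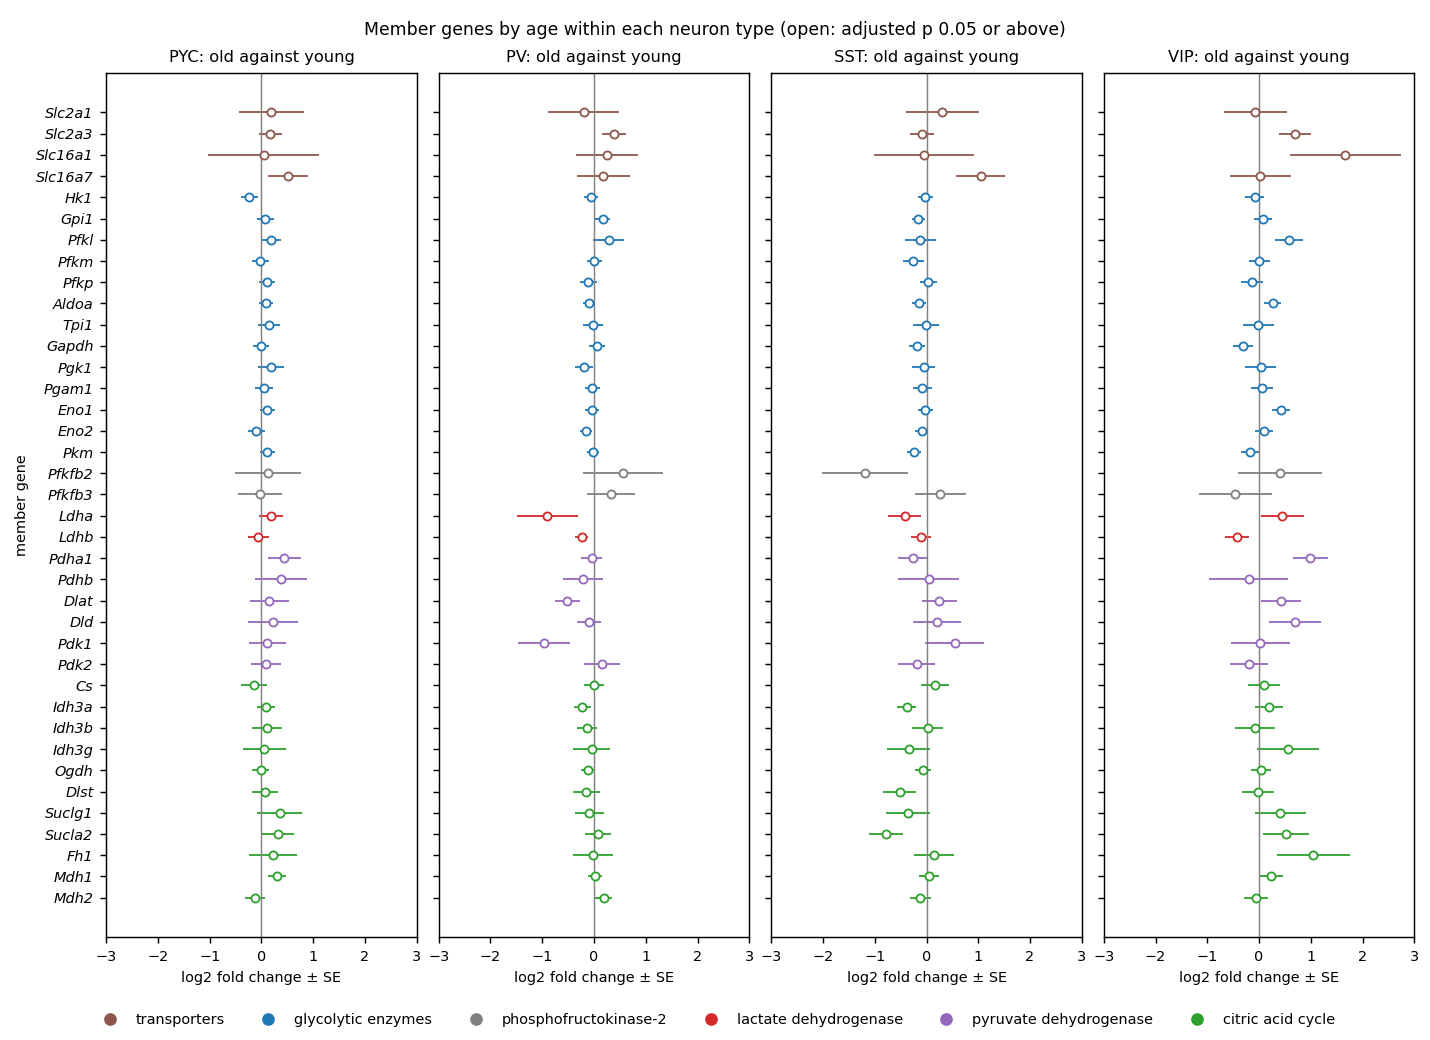
Log2 fold change ± SE of old against young libraries for the 38 members within each neuron type, coloured by role. All circles are open because none passed an adjusted p of 0.05 in edgeR; Pdha1 in VIP, at 0.99 ± 0.34, had the smallest p.

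Of 64 other genes of the pathways and their branches, 41 were abundant enough to be tested. In PV 13 of the 41 were higher (31.7%) and 1 was lower (2.44%), against 11.1% and 11.6% of all genes. Got1 and Got2, the aspartate aminotransferases of the malate-aspartate shuttle, were higher by 1.18 ± 0.13 and 0.79 ± 0.14. Mpc2, a subunit of the mitochondrial pyruvate carrier, was higher by 1.52 ± 0.29, and Me3, a mitochondrial malic enzyme, by 1.01 ± 0.17. Pgm2l1, which makes glucose 1,6-bisphosphate, was lower in PV at -0.67 ± 0.12 and higher in PYC by 1.15 ± 0.11, with medians of 446 CPM in PYC and 179.8 CPM in PV. In VIP 5 were lower (12.2%, against 5.5% of all genes), namely Got1, Me3, Got2, Sdhb and Mpc2. Slc2a13, a proton-coupled inositol transporter, was the 1 higher there (6.98% of all genes), by 0.74 ± 0.14. In PYC 2 of the 41 were higher (4.88%, against 9.15% of all genes) and 3 lower (7.32%, against 7.5%). Among them Pygb, brain glycogen phosphorylase, was lower at -0.95 ± 0.15, and Pgm1, a phosphoglucomutase, was lower. Pdp1, the phosphatase that reactivates pyruvate dehydrogenase, was higher by 0.90 ± 0.24. In SST 1 was higher (2.44%, against 4.46% of all genes) and 3 lower (7.32%, against 3.1%). Pygb was higher by 0.54 ± 0.14, while Slc2a13, Tigar, a fructose-2,6-bisphosphatase, and Aldoc, the aldolase of astrocytes, were lower.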

How the data were processed

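Raw read counts per gene, deposited by the authors as 1 table, were used, with HISAT2 and GRCm38 named in the submitters' processing notes. The sources used here do not name the counter, the annotation or the strand setting. Type and age were taken from the labels. Counts were fitted with edgeR 4.0.16 in R 4.3.3 (TMM scaling, robust quasi-likelihood, Benjamini-Hochberg) on 8 groups, after filterByExpr with a minimum count of 10 and a further step that kept genes at or above the median abundance. That further step was not applied within types for age. CPM, computed here from the deposited counts, relates a gene's count to its library total. Exon lengths came from GENCODE's mouse annotation; the alternative was the longest coding transcript. Copies needed 90% identity over 200 bases and 50% of the copy (BLAST+ 2.17.0). Alternatives used DESeq2 1.42.0 and limma 3.58.1. The scripts were tested on simulated counts. Members, gene lists and tests were chosen with earlier results of these data known. Values by library are given for the 12 members of smallest p across types, and for age for the 2 per type. Nothing shows that libraries were prepared independently, so p-values measure the spread between libraries. Hk1 and Ldha were given the same detail after their values were seen. A gene of the other pathway list that the rule would name is not reported here.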

Additional observations from a re-analysis of the deposited data

Results flagged for a closer look

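In young groups, which hold 8 or 9 libraries, 72 combinations of gene and group were screened for a library far from the rest, and 9 stood out where chance gives about 1 in 20. Groups of 12 were not screened. Young PYC library 2, in which mitochondrially encoded genes took 0.215% of counts, accounted for 4 of them. It was highest for Eno2 at 1171 CPM (next 662), Hk1 at 695.5 CPM (next 496) and Pkm at 950.5 CPM (next 633), and lowest for Sucla2 at 7.508 CPM (next 52.0). Calls without the libraries of low mitochondrial share are given with the alternatives. Young PV libraries stood out for Pdha1 in library 2 (177.4 CPM, next 118), Pdk1 in library 5 (104.9 CPM, next 38.9) and Pfkm in library 3 (509.7 CPM, next 369). Young PYC libraries stood out for Pdha1 in library 9 (179.7 CPM, next 91.8) and Pdk1 in library 4 (88.49 CPM, next 49.1).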

How the results depend on the processing

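Of the 60 calls of a member in a type, 0 changed sign under any of the 11 alternatives. They were still called in 57 cases with DESeq2's size factors, 58 without the median abundance step, 54 with no filter, 59 with DESeq2, 57 with limma-voom, 58 with the number after F in the titles as a factor (its meaning is not given in the labels), 57 with the library total as a covariate, 56 without the 6 libraries of low mitochondrial share, 35 in young libraries alone, 43 in old libraries alone and 58 with copies added (chosen after seeing the data). Slc2a3, not called in VIP, was called lower there under 5 of the alternatives. Without the low mitochondrial libraries the calls lost were Hk1 in PV and Cs, Tpi1 and Pdha1 in VIP. Counts that moved by over 1.5 times were PYC at 5 in young libraries alone (11 in all libraries), SST at 3 with no filter and 1 in young libraries alone (6 in all), and VIP at 10 in young and 10 in old libraries alone (17 in all). With no filter, 1 member was called for age in VIP, Pdha1 at 0.99 (adjusted p = 0.0341). That setting called 6505, 6355, 5734 and 7117 genes for age in PYC, PV, SST and VIP, against 0, and it moved the median of all genes to -0.27 in PV and -0.12 in SST. The cause was not tested. Without the median abundance step 378 genes were called for age over all types (0 with it) and 601 for the interaction (1 with it), and 0 members in either. Genes called in SST then numbered 1538 (726 with it) and in VIP 2299 (1198). With limma-voom genes called in SST numbered 1124. With no filter genes called were 4730 in PYC (1599), 4271 in PV (2180), 3207 in SST and 5312 in VIP. No paired analysis was possible because the labels do not tie libraries to mice. Scarce members such as Slc16a1, Pfkfb2 and Hk2 have wide intervals at this depth.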
